A study of Mus musculus with 50 samples.

Results

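Cytosolic ribosomal protein genes were followed on polysomes, the mRNAs bound to several ribosomes, in 5 populations of young adult mouse colon (YAMC) cells. A gene was taken where a probe set carried a single symbol that begins with Rpl or Rps and a digit, or is Rplp0, Rplp1, Rplp2 or Rpsa. Kinases of the Rps6k family and pseudogene symbols were left out, and the probe set with the highest mean stood for its gene. The rule gave 50 genes of the 18193 with a single-symbol probe set, and 46 of them passed the filter on low values, of 12883 genes tested. Rpl12, Rpl39l, Rpl3l and Rps16 did not pass, with mean levels of 5.77, 5.18, 5.00 and 4.40 on the log2 scale of the table, and entered no fit. One gene taken by the rule, Rps19bp1, encodes a binding partner of RPS19 and not a ribosomal protein. Another 31 ribosomal protein symbols, among them Rpl3, Rpl5 and Rplp1, stood only on probe sets with several symbols and were not analysed here.

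The mp53/Ras cells carry retroviral mutant p53 (p53175H) and activated Ras (RasV12), the Ras cells RasV12 with the empty bleo vector, and the mp53 cells p53175H with the empty Neo vector. The bleo/Neo cells carry both empty vectors, and YAMC cells are the parental cells. Each of the 4 infected populations is polyclonal and exists once, so a difference between populations cannot be told apart from a difference between derivations. All 5 share the temperature-sensitive tsA58 large T transgene of the Immorto mouse under an interferon γ-inducible promoter. They were expanded at 33 °C and tested at 39 °C without interferon γ for 48 h, then for 24 h in 0% serum. There were 10 arrays per population and 50 in all. The labels do not say whether the 10 were separate cultures, so p-values measure only the spread between these samples.

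A ribosome joins a small 40S subunit, which reads the mRNA, to a large 60S subunit, which makes the peptide bond, and each subunit is built from ribosomal RNA and a fixed set of proteins. Most of these proteins are present once per ribosome, and their mRNAs are among the most abundant of a growing cell. Many of those mRNAs start with a 5′ terminal oligopyrimidine (5′TOP) tract, through which growth and nutrient signals move them on or off polysomes together. A polysomal intensity depends on transcript abundance and on ribosome loading at once, and in bulk RNA fewer cells of a kind and less RNA per cell cannot be told apart.

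The colon epithelial label was only in part borne out by marker levels. Epcam, Krt8, Krt18, Krt19 and Cldn3 passed the filter, while Cdh1, Vil1, Cdx1, Cdx2 and Cldn4 did not. Of 7 fibroblast and smooth muscle markers 6 passed and Thy1 did not: group means ran from 12.4 to 13.3 for Col1a1, 13.1 to 14.0 for Acta2, 12.8 to 13.8 for Tagln, 8.68 to 13.3 for Col1a2, 10.7 to 12.9 for Dcn and 7.62 to 8.01 for Pdgfrb. Cd68 and Cd3e passed among 4 immune markers, and Tek among 3 endothelial ones. Over the whole table, arrays mp53 8, mp53 10, Ras 10 and YAMC 2 lay nearer another group's mean than their own. Some results that changed without them are marked below, and genes whose calls were gained without them are not named.

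More ribosomal protein genes were called higher than lower on polysomes of mp53/Ras cells and of Ras cells, by small amounts, while calls in mp53 cells went both ways. Against bleo/Neo, 28 of the 46 tested genes were higher in mp53/Ras cells and 1, Rpl19, was lower. Of all tested genes, 26.7% were called higher and 27.9% lower in that comparison (limma, Benjamini-Hochberg adjusted p under 0.05). The median log2 difference of the 46 was 0.14, and that of all tested genes was 0.01. Several cell type markers differed between the same groups by more. Means in mp53/Ras and bleo/Neo arrays were 12.67 and 11.24 for Krt18, 12.94 and 12.26 for Krt8, and 9.78 and 11.54 for Krt19. They were 12.41 and 8.68 for Col1a2, 10.69 and 12.92 for Dcn, 8.41 and 9.96 for Cd68, and 5.36 and 7.11 for Tek. Epcam, at 8.41 and 8.07, Cldn3, at 7.27 and 7.18, and Col1a1, at 12.49 in both, lay closer together. So did Pdgfrb, at 8.01 and 7.62, Acta2, at 13.52 and 13.13, Tagln, at 12.90 and 13.03, and Cd3e, at 7.33 and 7.28. The part of the markers in the ribosomal protein differences was not tested. Single genes differed little: 1 of the 46, Rps4l, was called and differed at least 2-fold, beside 6.94% of all tested genes. Rps4l was also the 1 such gene in Ras and in mp53 cells against bleo/Neo, in bleo/Neo cells against YAMC and for the non-additive term, beside 4.05%, 3.21%, 2.77% and 3.12% of all tested genes. Against YAMC none of the 46 reached that size in mp53/Ras, Ras or mp53 cells, beside 5.76%, 2.98% and 0.8% of all tested genes (limma; 33, 28 and 9 were called at any size).

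The shift was seen in both subunits. Leaving out Rps4l, Rpl22l1, Rps27l, Rpl7l1 and Rps19bp1, 41 genes remained, 20 of the 40S and 21 of the 60S. In mp53/Ras cells 12 of the 20 40S genes were higher and none was lower than in bleo/Neo cells, with a median of 0.13. Of the 21 60S genes 13 were higher and 1 was lower, with a median of 0.14. Of 566 tested genes with a mean of at least 12, ribosomal protein genes included, 141 were higher and 188 lower, with a median of −0.04. Of the 34 ribosomal protein genes of the 41 that were as bright, 22 were higher and 1 was lower. The part of brightness in these differences was not tested.

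The mean deviation of the 41 genes from their own means over all arrays gives 1 level per array. It ran from 0.05 to 0.20 in mp53/Ras arrays (median 0.14), from 0.00 to 0.11 in Ras arrays (0.09) and from −0.24 to 0.07 in mp53 arrays (−0.02). It ran from −0.17 to 0.10 in bleo/Neo arrays (−0.07) and from −0.30 to −0.02 in YAMC arrays (−0.09). All mp53/Ras arrays lay above all YAMC arrays, but they overlapped the upper bleo/Neo arrays. Array 5 was the lowest in the mp53, bleo/Neo and YAMC groups. With the arrays numbered 5 left out of all groups, 27 members were higher in mp53/Ras cells than in bleo/Neo cells.

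**Figure D1:**
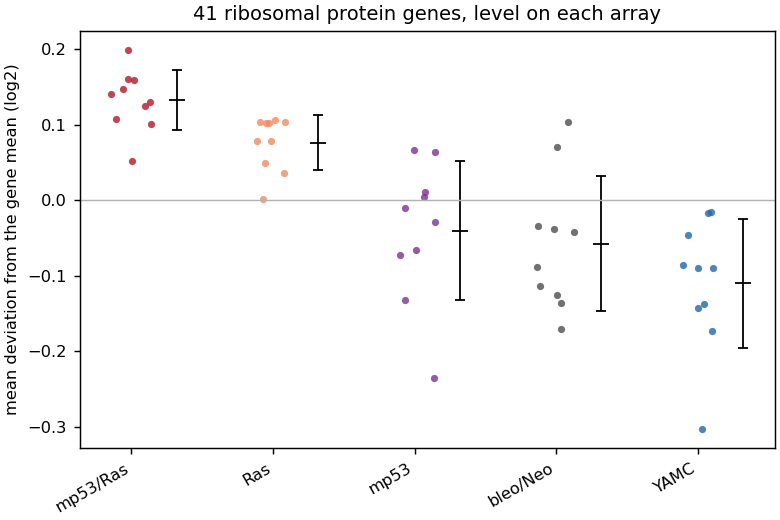
Mean deviation of 41 ribosomal protein genes from their own mean over 50 arrays (log2), for each of 10 arrays per population; bars give the mean ± SD of each group. The mp53/Ras arrays lie between 0.05 and 0.20, above every YAMC array and overlapping bleo/Neo.

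Among the 20 40S genes, each read at its brightest probe set, Rps25 differed most between mp53/Ras and bleo/Neo cells. The order depended on the probe set: Rps10 differed by 0.15 at its representative and by 0.84 at another, with a mean of 12.05. Rps25, whose protein is needed for initiation on some viral internal entry sites, had 1 single-symbol probe set, with a mean of 10.41. In mp53/Ras arrays its levels were 10.64, 10.82 and 11.18 (lowest, median and highest of 10), and in Ras arrays 10.38, 10.71 and 11.18. In mp53 arrays they were 9.13, 10.38 and 10.77, in bleo/Neo arrays 9.68, 10.01 and 10.78, and in YAMC arrays 9.48, 10.30 and 10.67. Against bleo/Neo, Rps25 was higher by 0.77 ± 0.15 in mp53/Ras cells (SE of the limma fit, n = 10 arrays per group, as below; limma adjusted p = 3.41e-05) and by 0.60 ± 0.15 in Ras cells (adjusted p = 0.00139). Its difference in mp53 cells, 0.14 ± 0.15, did not pass. The mp53/Ras and bleo/Neo arrays overlapped.

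Rps26, whose protein contacts mRNA at the exit channel of the 40S subunit, and Rps18, a protein of the 40S head, are shown because mp53/Ras and bleo/Neo arrays did not overlap, a choice made after their values were seen. Rps26 levels were 13.45, 13.52 and 13.63 in mp53/Ras arrays and 12.80, 13.14 and 13.41 in bleo/Neo arrays, a difference of 0.39 ± 0.08 (limma adjusted p = 1.84e-05). Rps18 levels were 13.60, 13.66 and 13.73 in mp53/Ras arrays and 13.11, 13.32 and 13.49 in bleo/Neo arrays, a difference of 0.34 ± 0.05 (adjusted p = 2.1e-08). Its size depended on the probe set. Other Rps18 probe sets that passed the filter, with means of 13.28, 13.25 and 6.65, gave 0.45, 0.07 and −0.05. In all, the groups did not overlap for 5 of the 46 genes, Rps4l, Rpl7l1, Rplp0, Rps18 and Rps26, all higher in mp53/Ras cells, beside 6.99% of all tested genes. No member lay wholly lower there, beside 10.4%. In Ras and mp53 arrays Rps4l alone lay wholly above bleo/Neo, beside 3.31% and 2.48% of all tested genes, and no member lay wholly below, beside 3.49% and 2.04%. Rps26 also stood above bleo/Neo by 0.35 ± 0.08 in Ras cells (adjusted p = 0.000136), and its 0.13 ± 0.08 in mp53 cells did not pass.

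Rpsa encodes the 40S protein also known as the laminin receptor precursor. Its levels were 12.85, 13.01 and 13.15 in mp53/Ras arrays, 12.73, 12.85 and 13.04 in Ras arrays, 12.41, 12.85 and 13.05 in mp53 arrays, 12.32, 12.60 and 12.86 in bleo/Neo arrays and 12.56, 12.87 and 13.08 in YAMC arrays. The bleo/Neo population was the low one. Rpsa was higher than in bleo/Neo by 0.39 ± 0.07 in mp53/Ras, 0.25 ± 0.07 in Ras and 0.19 ± 0.07 in mp53 cells, and lower in bleo/Neo than in YAMC cells by −0.20 ± 0.07 (limma adjusted p = 4.04e-06, 0.00292, 0.028 and 0.0219). The call in mp53 cells was lost without arrays mp53 10 and Ras 10, at 0.16, and with the mean of its probe sets the difference turned to −0.034; that of bleo/Neo from YAMC was then −0.042 and not called.

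Among the 21 60S genes, each read at its brightest probe set, Rpl37, Rpl41 and Rpl14 differed most between mp53/Ras and bleo/Neo cells. Rpl37 levels were 11.02, 11.42 and 11.87 in mp53/Ras arrays, 11.01, 11.35 and 11.59 in Ras arrays, 10.44, 11.16 and 11.40 in mp53 arrays, 10.07, 10.79 and 11.52 in bleo/Neo arrays and 10.04, 10.50 and 11.07 in YAMC arrays. It was higher than in bleo/Neo by 0.63 ± 0.14 in mp53/Ras cells and by 0.55 ± 0.14 in Ras cells (limma adjusted p = 0.000177 and 0.00167), and by 0.23 ± 0.14 in mp53 cells, which did not pass. Rpl41, the smallest ribosomal protein, lay at 13.02, 13.22 and 13.85 in mp53/Ras arrays, 12.77, 13.14 and 13.39 in Ras arrays and 12.29, 12.72 and 13.32 in bleo/Neo arrays. It was higher by 0.58 ± 0.11 in mp53/Ras and 0.42 ± 0.11 in Ras cells. Another Rpl41 probe set, with a mean of 12.96, gave 0.58 and 0.41 in these comparisons. A dimmer one that also passed the filter, with a mean of 7.47, gave −0.08 and −0.26. Rpl14 was higher by 0.51 ± 0.13 and 0.46 ± 0.13 in the same comparisons. Bleo/Neo arrays spread widely for Rpl37 and Rpl41 and overlapped both Ras-carrying populations.

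The acidic stalk of the 60S subunit recruits elongation factors, and Rplp0 anchors it. Rplp0 levels were 12.88, 13.03 and 13.09 in mp53/Ras arrays, 12.37, 12.82 and 12.97 in Ras arrays, 12.41, 12.67 and 12.86 in mp53 arrays, 12.52, 12.67 and 12.86 in bleo/Neo arrays and 12.47, 12.70 and 12.83 in YAMC arrays. Every mp53/Ras array lay above every bleo/Neo and YAMC array, with differences of 0.34 ± 0.06 against bleo/Neo and 0.34 ± 0.06 against YAMC (limma adjusted p = 7.13e-07 and 6.67e-07). In Ras cells the difference from bleo/Neo, 0.12 ± 0.06, did not pass, and in mp53 cells it was −0.01 ± 0.06. The lowest Ras array, at 12.37, was Ras 10, one of the arrays nearer another group, and the next lowest was 12.67. The Ras difference without that array is not given here. The stalk protein gene Rplp2 was higher in mp53/Ras than in bleo/Neo cells by 0.17 ± 0.06 (adjusted p = 0.014), and did not pass in Ras (0.04 ± 0.06) or mp53 cells (−0.10 ± 0.06).

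Rpl19, a 60S protein that reaches across to the 40S subunit, was the gene called lower. Its levels were 13.32, 13.47 and 13.54 in mp53/Ras arrays and 13.51, 13.58 and 13.71 in bleo/Neo arrays, and it fell by 0.14 ± 0.03 in mp53/Ras cells (limma adjusted p = 0.000479) and by 0.09 ± 0.03 in Ras cells (adjusted p = 0.0351). The call in Ras cells was lost without arrays mp53 10 and Ras 10, at −0.07, with arrays centred on their median, also at −0.07, and without an intensity trend, at −0.09. Against YAMC, Rpl19 did not differ past the threshold in either population.

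**Figure D2:**
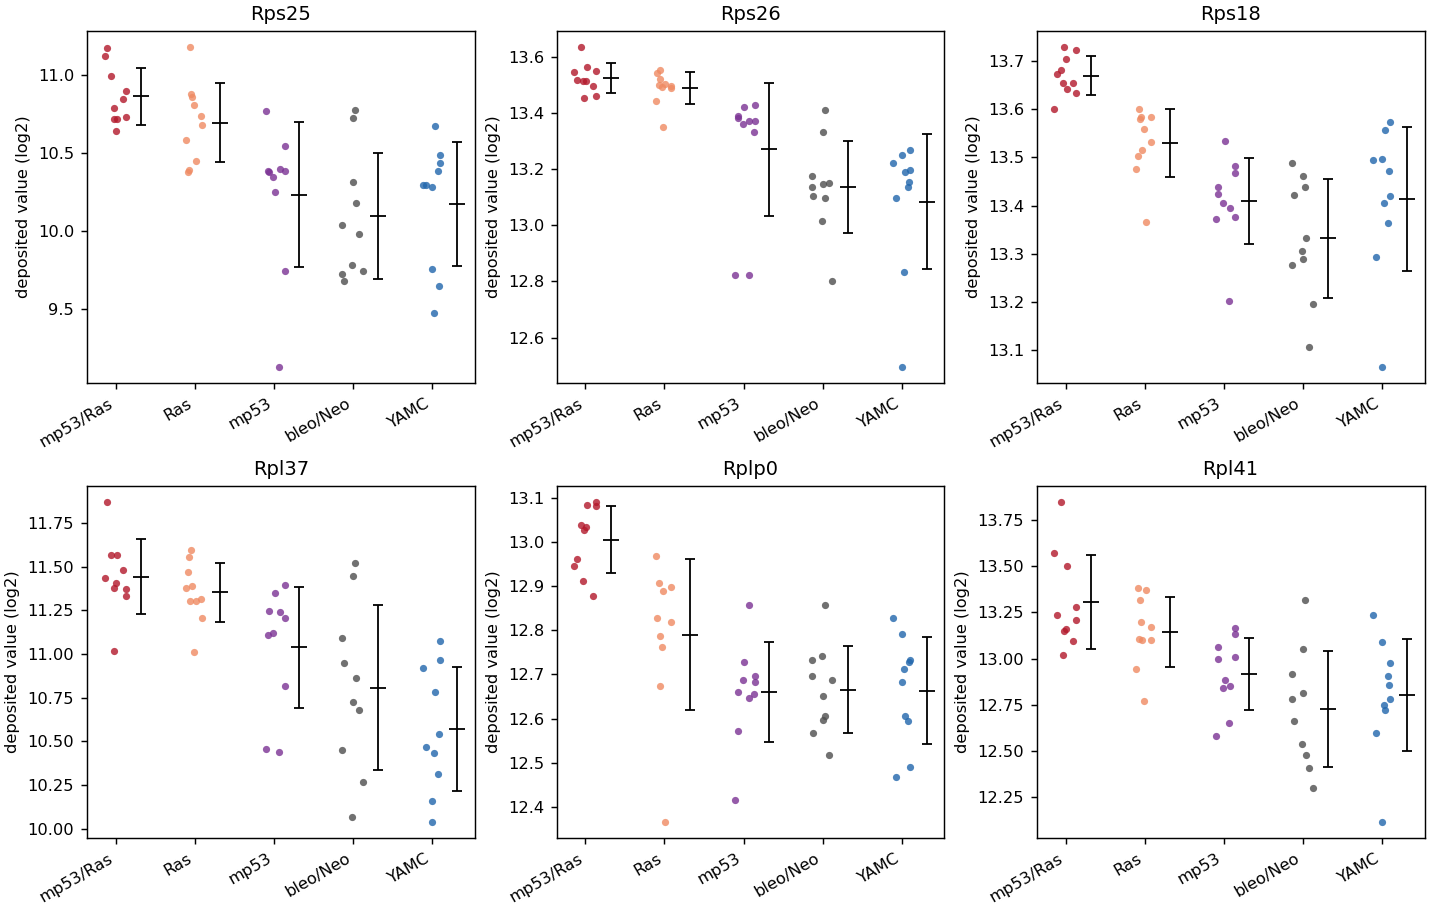
Deposited values (log2) of Rps25, Rps26, Rps18, Rpl37, Rplp0 and Rpl41 on each of 10 arrays per population, with the mean ± SD of each group; each panel has its own axis, which does not start at 0. The mp53/Ras arrays lie wholly above the bleo/Neo arrays for Rps26, Rps18 and Rplp0 and overlap them for Rps25, Rpl37 and Rpl41.

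Called in either direction against bleo/Neo were 29 of the 46 in mp53/Ras, 20 in Ras and 11 in mp53 cells, beside 54.6%, 41.1% and 35.4% of all tested genes. In Ras cells 19 of 46 genes were higher than in bleo/Neo cells and 1 was lower, beside 19.7% and 21.4% of all tested genes, with a median of 0.11. In mp53 cells 5 were higher and 6 lower, beside 16.5% and 18.9%, with a median of 0.01, so the counts there were no larger than the background. These comparisons and that of mp53/Ras share the 10 bleo/Neo arrays. The mp53/Ras mean was the highest of the 5 group means for 37 of the 46 genes, and mp53/Ras and Ras were the top pair for 33. YAMC was lowest for 23 genes and bleo/Neo for 16. Apart from Rps4l, the span of a gene's 5 group means ran from 0.07 to 0.87 with a median of 0.24, and the median SD within a group was 0.13.

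With YAMC in place of bleo/Neo, 32 genes were higher and 1 lower in mp53/Ras cells (29.1% and 28.7% of all tested genes; median 0.21). In Ras cells 27 were higher and 1 lower (21.5% and 21.2%; median 0.14), and in mp53 cells 8 were higher and 1 lower (11.1% and 11.8%; median 0.05). The gene called lower was Rps4l in the comparisons of mp53/Ras and Ras, and Rpl6 in that of mp53. In either direction that makes 33, 28 and 9, beside 57.8%, 42.7% and 22.9%. The mp53 count of 9 was 14 when the 4 arrays nearer another group were left out. Against YAMC, Rpl37 was higher by 0.87 ± 0.14 in mp53/Ras, 0.78 ± 0.14 in Ras and 0.47 ± 0.14 in mp53 cells (limma adjusted p = 9.67e-07, 1.43e-05 and 0.0129). For 9 genes every mp53/Ras array lay above every YAMC array, beside 7.13% of all tested genes: Rpl11, Rpl22, Rpl7a, Rplp0, Rps15, Rps18, Rps19bp1, Rps26 and Rps9. No member lay wholly below YAMC in mp53/Ras arrays, beside 8.97%. Rpl22, Rps19bp1 and Rps26 lay wholly above YAMC in Ras arrays, beside 2.27%, and none below, beside 1.9%. In mp53 arrays no member lay wholly above or below, beside 0.155% and 0.0854%. In mp53/Ras cells 23 genes were called higher against both controls, as were 13 in Ras cells and 2 in mp53 cells, beside 18%, 10.3% and 4.32% of all tested genes. Each such pair of calls shares the arrays of the oncogene population. Rpl27a, Rpl7, Rps19, Rps27, Rps27l and Rps28 were called in none of the 7 pairwise comparisons.

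**Figure D3:**
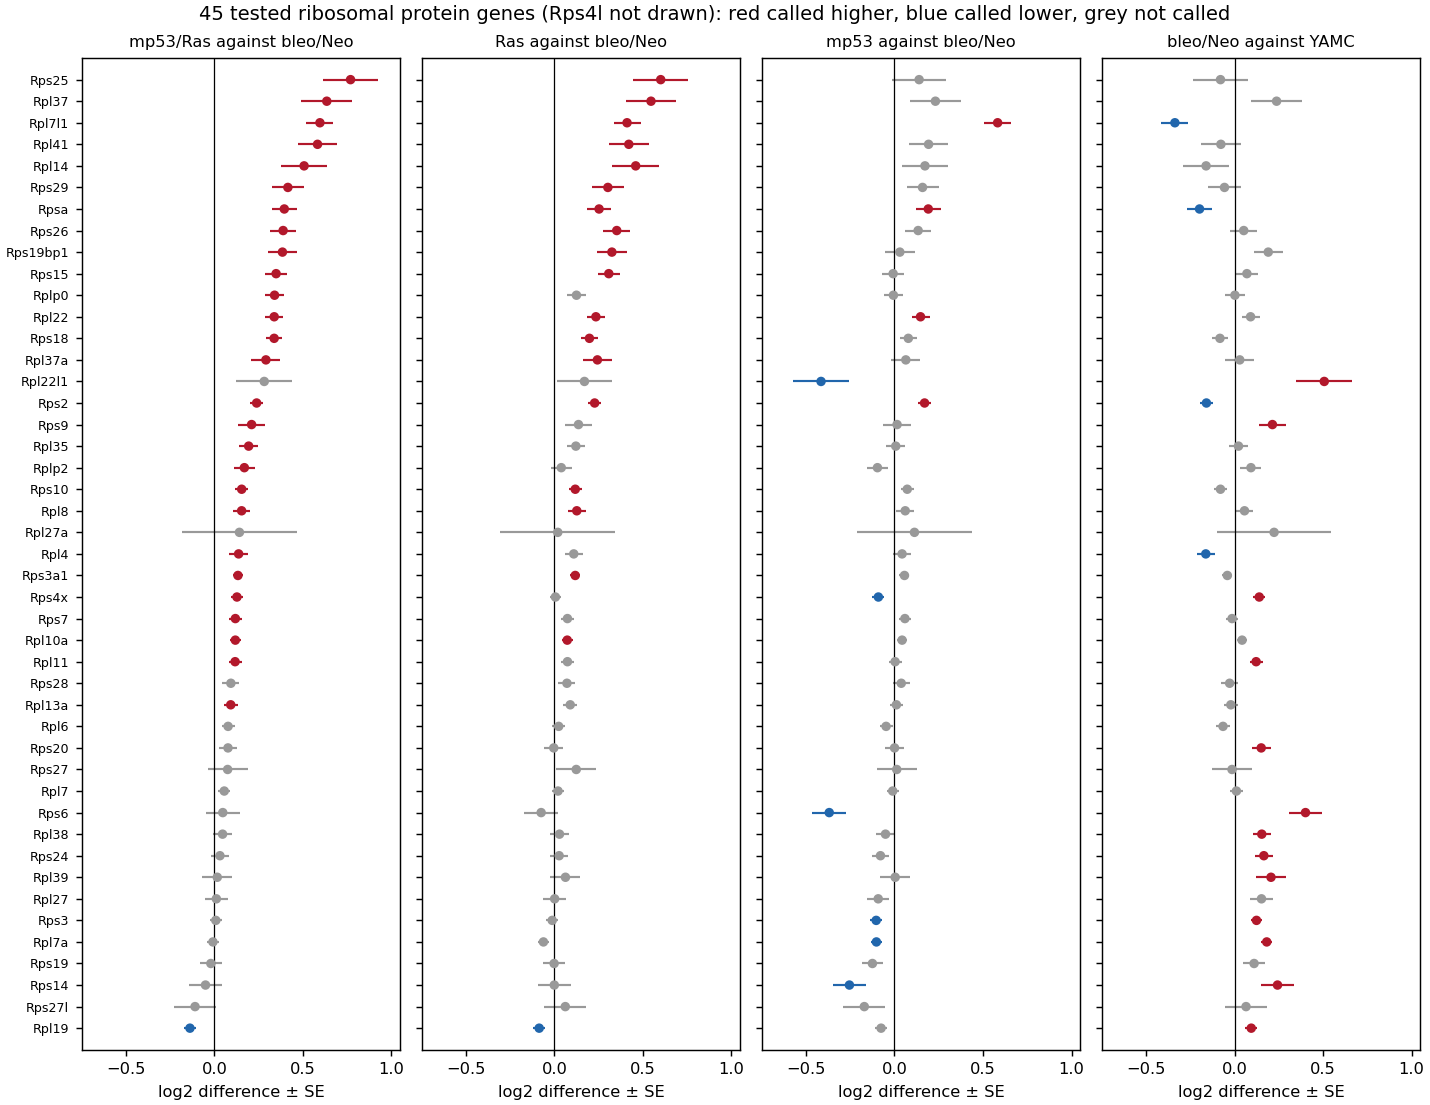
Log2 difference ± SE of the limma fit for 45 tested genes in 4 comparisons of 10 arrays with 10, ordered by the difference of mp53/Ras from bleo/Neo; red marks genes called higher, blue called lower and grey not called. Rps4l is left out for its size (5.03, 5.25, 5.80 and −5.77). In the panels of mp53/Ras and Ras most coloured points lie right of 0, and in the panel of mp53 they lie on both sides.

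The 2 controls, the vector population and its parental cells, also differed from each other. In bleo/Neo cells 13 genes were higher and 5 lower than in YAMC cells, beside 20% and 17.4% of all tested genes (18 in either direction, beside 37.4%), with a median of 0.05. Rps6, the 40S protein phosphorylated by S6 kinases, lay at 8.23, 8.36 and 8.99 in bleo/Neo arrays and at 7.75, 8.07 and 8.40 in YAMC arrays, higher by 0.40 ± 0.10 (limma adjusted p = 0.000731), a call lost with the mean of its probe sets, at 0.036. Rpl7a was the gene whose bleo/Neo arrays (13.74, 13.81 and 13.90) all lay above the YAMC arrays (13.57, 13.62 and 13.72), a difference of 0.18 ± 0.03 (adjusted p = 1.17e-05), beside 2.38% of all tested genes, and Rps4l was the gene lying wholly lower, beside 2.51%. Rps14, Rps9 and Rpl39 were higher by 0.24 ± 0.09, 0.21 ± 0.08 and 0.21 ± 0.08 (adjusted p = 0.0346, 0.0254 and 0.0492), and lost their calls without the arrays numbered 5, at 0.23, 0.18 and 0.21; that of Rpl39 was also lost without arrays mp53 10 and Ras 10. Rps2, a protein of the mRNA entry channel, and Rpl4, which lines the peptide exit tunnel, were lower by −0.16 ± 0.04 and −0.16 ± 0.05 (adjusted p = 0.000509 and 0.0114).

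In mp53 cells the genes called lower than in bleo/Neo were Rpl22l1, Rps6, Rps14, Rps3, Rpl7a and Rps4x. Rps6 lay at 7.85, 8.01 and 8.85 in mp53 arrays and 8.23, 8.36 and 8.99 in bleo/Neo arrays, and fell by 0.37 ± 0.10 (limma adjusted p = 0.00188). With the mean of its probe sets in place of the brightest, the difference turned to 0.11. The top mp53 value belonged to array 8, one of the arrays nearer another group. Rps14, a 40S platform protein, fell by 0.25 ± 0.09 (adjusted p = 0.0275), a call lost without the 4 arrays nearer another group, at −0.15. Rps3, of the mRNA entry site, and the 60S gene Rpl7a fell by 0.10 ± 0.03 each (adjusted p = 0.00951 and 0.0115). The genes called higher were Rps4l, Rpl7l1, Rpsa, Rps2 (0.17 ± 0.04, adjusted p = 0.000214) and Rpl22 (0.15 ± 0.05, adjusted p = 0.0196). Mean mp53 levels of Rps6, Rps14, Rps3 and Rpl7a were 8.10, 12.97, 13.36 and 13.71, beside 8.07, 12.99, 13.34 and 13.63 in YAMC cells, and none of these mp53 differences from YAMC passed.

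The non-additive term asks whether mp53/Ras differed from bleo/Neo by more or less than mp53 and Ras added. It was called positive for 6 genes and negative for 3, beside 11.8% and 12% of all tested genes (9 in either direction, beside 23.9%). It was positive for Rps6 (0.49 ± 0.14), whose differences from bleo/Neo were 0.05 in mp53/Ras, −0.07 in Ras and −0.37 in mp53 cells (limma adjusted p of the term 0.00549). With the mean of its probe sets that term was 0.13 and not called. For the stalk genes Rplp2 and Rplp0 the term was 0.23 ± 0.08 and 0.22 ± 0.08 (adjusted p = 0.0422 and 0.0314), and for Rps4x 0.21 ± 0.05 (adjusted p = 0.000551). The Rplp0 term was not called without arrays mp53 10 and Ras 10, at 0.17, nor that of Rplp2 without an intensity trend, at 0.23. The term was negative for Rpl7l1, at −0.40 ± 0.11 (adjusted p = 0.00472), with differences of 0.60 in mp53/Ras, 0.41 in Ras and 0.58 in mp53 cells. It was also negative for Rps4l, at −6.02 ± 0.18, where all 3 populations differed from bleo/Neo by similar amounts.

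Rps4l and Rps4x are copies of the gene for the 40S protein S4, Rps4x on the X chromosome and Rps4l on chromosome 6. RefSeq lists Rps4l as a transcribed pseudogene and the other 49 members as protein coding. Rps4l was low in 1 population: its levels were 9.06, 9.51 and 9.91 in mp53/Ras arrays, 9.26, 9.73 and 10.08 in Ras arrays, 9.66, 10.30 and 10.78 in mp53 arrays, 4.01, 4.41 and 5.07 in bleo/Neo arrays and 9.75, 10.29 and 10.54 in YAMC arrays. All bleo/Neo arrays lay far below the 40 others. The differences from bleo/Neo were 5.03 ± 0.13 in mp53/Ras, 5.25 ± 0.13 in Ras and 5.80 ± 0.13 in mp53 cells, and bleo/Neo differed from YAMC by −5.77 ± 0.13 (limma adjusted p between 1.63e-38 and 8.46e-36). The lowest value of the table is 3.04, and whether the bleo/Neo level of Rps4l stands above background was not tested. With YAMC as the control, Rps4l fell by 0.74 ± 0.13 in mp53/Ras cells and by 0.52 ± 0.13 in Ras cells (adjusted p = 2e-06 and 0.000805), and its difference in mp53 cells, 0.03 ± 0.13, did not pass.

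Rps4x did not follow its paralog. Its levels were 13.41, 13.55 and 13.60 in mp53/Ras arrays, 13.28, 13.43 and 13.49 in Ras arrays, 13.24, 13.31 and 13.41 in mp53 arrays, 13.31, 13.39 and 13.52 in bleo/Neo arrays and 13.10, 13.27 and 13.41 in YAMC arrays. It was higher in mp53/Ras than in bleo/Neo cells by 0.13 ± 0.03, lower in mp53 cells by −0.09 ± 0.03 and higher in bleo/Neo than in YAMC cells by 0.14 ± 0.03 (limma adjusted p = 0.00111, 0.0287 and 0.000721). Another Rps4x probe set that passed the filter, with a mean of 6.90, gave 0.30, −0.02 and −0.03 in these comparisons. Within arrays, the difference Rps4l minus Rps4x changed by 4.90 ± 0.11 in mp53/Ras, 5.25 ± 0.12 in Ras and 5.89 ± 0.14 in mp53 cells against bleo/Neo, and by −5.91 ± 0.14 in bleo/Neo against YAMC. Each two-sided permutation test over 10 and 10 arrays gave p = 2e-05, the smallest that 100000 resamples can give, and 8e-05 after adjustment over 20 paralog tests.

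Of Y-linked genes, Eif2s3y, Uty and Kdm5d, looked at after the Rps4l values were seen, were also low in bleo/Neo arrays. Eif2s3y medians were 7.99 in mp53/Ras, 8.27 in Ras, 8.94 in mp53, 3.75 in bleo/Neo and 8.59 in YAMC arrays. The medians of Kdm5d and Uty in bleo/Neo arrays were 3.60 and 3.55, near the lowest value of the table, and between 5.56 and 7.40 elsewhere. The collagen gene Col1a2 averaged 8.68 in bleo/Neo arrays, against 12.1 to 13.3 in the other groups. Bleo/Neo thus differs from the other populations in several transcripts at once, and their part in the Rps4l result was not tested.

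**Figure D4:**
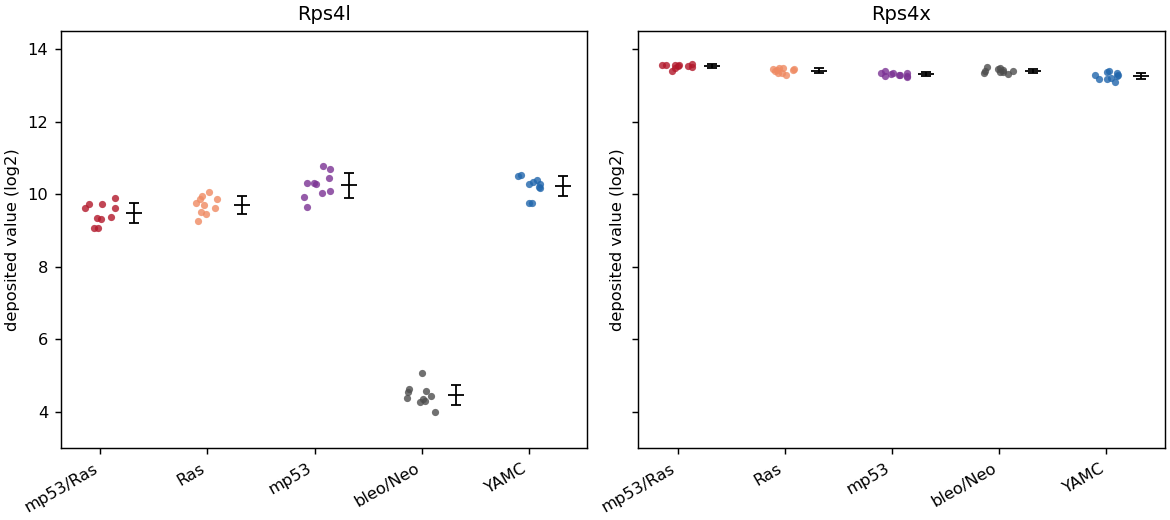
Deposited values (log2) of Rps4l and Rps4x on each of 10 arrays per population, on a shared axis, with the mean ± SD of each group. Rps4l lies between 4.01 and 5.07 in bleo/Neo and above 9 in every other array, while Rps4x stays between 13.10 and 13.60.

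Rpl22l1 can take the place of Rpl22 in the 60S subunit. Rpl22l1 levels were 11.75, 12.11 and 12.40 in mp53/Ras arrays, 11.58, 12.06 and 12.27 in Ras arrays, 10.28, 11.57 and 11.94 in mp53 arrays, 11.22, 11.86 and 12.36 in bleo/Neo arrays and 10.12, 11.49 and 11.84 in YAMC arrays. It was higher in bleo/Neo than in YAMC cells by 0.51 ± 0.16 and lower in mp53 than in bleo/Neo cells by −0.41 ± 0.16 (limma adjusted p = 0.00867 and 0.0339), and the call in mp53 cells was lost without the arrays numbered 5, at −0.33. The differences of 0.28 ± 0.16 in mp53/Ras and 0.17 ± 0.16 in Ras cells did not pass. Rpl22 was higher than in bleo/Neo by 0.34 ± 0.05 in mp53/Ras cells (adjusted p = 1.51e-07). Within arrays, Rpl22l1 minus Rpl22 changed by −0.56 ± 0.14 in mp53 cells (permutation p = 0.00032, adjusted p = 0.000711) and by 0.42 ± 0.18 in bleo/Neo against YAMC (permutation p = 0.0114, adjusted p = 0.0207), the second of which was lost with the mean of each gene's probe sets, at 0.28. Its changes in mp53/Ras and Ras cells, −0.06 ± 0.09 and −0.06 ± 0.11, did not pass.

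Rpl7l1, a paralog of Rpl7 found with assembling 60S particles, was called higher than in bleo/Neo in all 3 oncogene populations. Its levels were 10.28, 10.43 and 10.66 in mp53/Ras arrays, 10.06, 10.26 and 10.61 in Ras arrays, 10.12, 10.45 and 10.57 in mp53 arrays, 9.43, 9.88 and 10.19 in bleo/Neo arrays and 9.92, 10.25 and 10.43 in YAMC arrays. It was higher than in bleo/Neo by 0.60 ± 0.08, 0.41 ± 0.08 and 0.58 ± 0.08 in mp53/Ras, Ras and mp53 cells (limma adjusted p = 3.02e-09, 1.59e-05 and 1.48e-08), and lower in bleo/Neo than in YAMC by −0.34 ± 0.08 (adjusted p = 0.000373). Bleo/Neo was the low population here as well. Rpl7 was called in no comparison, and Rpl7l1 minus Rpl7 changed by 0.54 ± 0.08, 0.39 ± 0.10 and 0.59 ± 0.09 in the 3 oncogene populations and by −0.35 ± 0.10 in bleo/Neo against YAMC (permutation tests, adjusted p = 0.000114, 0.0006, 0.000114 and 0.00464). The change in bleo/Neo against YAMC was −0.095 and not called with the mean of each gene's probe sets.

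**Figure D5:**
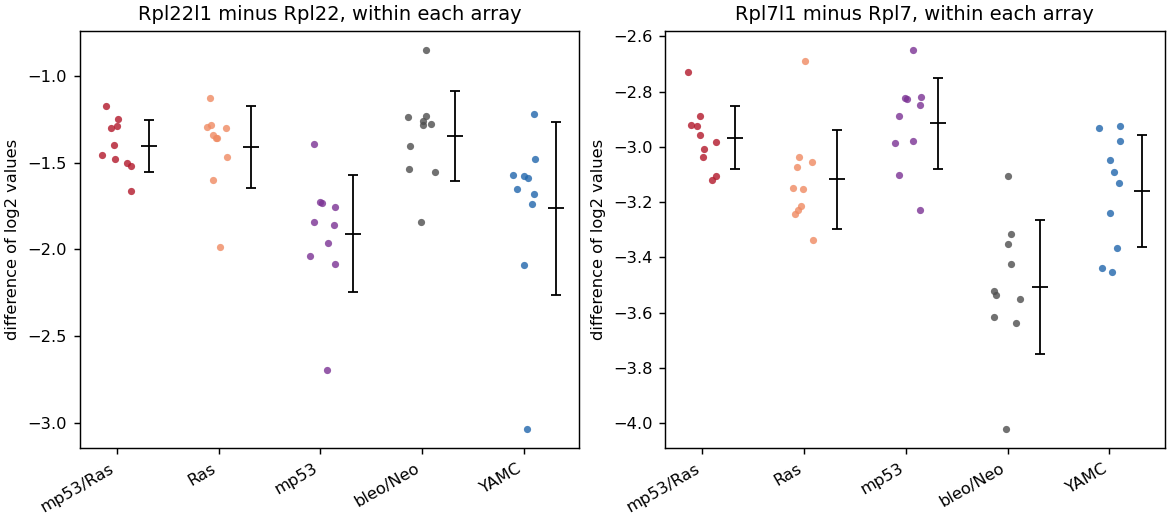
Difference of log2 values within each array for Rpl22l1 minus Rpl22 and Rpl7l1 minus Rpl7, 10 arrays per population, with the mean ± SD of each group; the panels have their own axes. For the pair of Rpl22 the mp53 arrays lie below most bleo/Neo arrays, and for the pair of Rpl7 the bleo/Neo arrays are the low ones.

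RPS27L is a p53 target in human cells. Rps27l levels were 12.49, 12.65 and 13.09 in mp53/Ras arrays, 12.63, 12.87 and 13.16 in Ras arrays, 12.23, 12.69 and 12.94 in mp53 arrays, 12.34, 12.87 and 13.20 in bleo/Neo arrays and 11.75, 12.97 and 13.20 in YAMC arrays, and the groups overlapped throughout. Rps27l minus Rps27 changed by −0.18 ± 0.07 in mp53/Ras and −0.18 ± 0.07 in mp53 cells against bleo/Neo (permutation tests, adjusted p = 0.0373 and 0.0416). Both calls were lost without the arrays numbered 5, at −0.18 and −0.15, and that in mp53 cells also without arrays mp53 10 and Ras 10, at −0.17. Rpl39l, a testis-expressed copy of the exit tunnel gene Rpl39, lay at 4.86, 5.00 and 5.32 in bleo/Neo arrays and 5.18, 5.53 and 5.93 in YAMC arrays, with overlap between the groups. Rpl39l was too dim to pass the filter, so its difference from Rpl39 is not read as a change.

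The start of some of these genes is shown because the 5′TOP tract is the feature the family is known for. RefSeq entries of build GRCm38.p6 gave promoters for 44 of the 50 members. The pyrimidine run CTTTC was searched within 15 bases of the annotated start, on both strands. No other pyrimidine run was searched, so a gene without CTTTC is not shown to lack a 5′TOP tract. The Rps25 sequence below, without CTTTC, holds another pyrimidine run before its annotated start. On the sense strand it stood in 11 of 52 member promoters (21.2%) and in 4.05% of 32851 promoters in all. On the antisense strand it stood in 1.92% of member promoters and 3.6% of all. Each sequence below spans 45 bases before and 15 bases from the start, 5′ to 3′ on the strand of the gene, with CTTTC in capitals where it lies in that range. Rps26 (chr10:128626492-128626551, minus strand) and Rpl38 (chr11:114668535-114668594, plus strand) hold it, and Rps25 (chr9:44407669-44407728, plus strand), Rpl37 (chr15:5116568-5116627, plus strand), Rplp0 (chr5:115559422-115559481, plus strand) and Rps4x (chrX:102189377-102189436, minus strand) do not.
Rps26: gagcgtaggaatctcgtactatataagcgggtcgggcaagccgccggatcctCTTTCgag
Rpl38: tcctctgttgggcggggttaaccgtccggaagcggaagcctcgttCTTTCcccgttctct
Rps25: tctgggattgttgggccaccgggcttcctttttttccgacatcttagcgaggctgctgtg
Rpl37: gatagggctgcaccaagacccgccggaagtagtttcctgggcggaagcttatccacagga
Rplp0: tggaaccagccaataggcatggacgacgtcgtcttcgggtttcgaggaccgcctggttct
Rps4x: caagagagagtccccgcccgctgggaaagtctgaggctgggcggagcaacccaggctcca

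Whether genes with and without the run CTTTC differed was not tested, and the run does not sort genes by whether they have a 5′TOP tract. Of the 9 tested genes with it, 5 were higher in mp53/Ras than in bleo/Neo cells, with a median of 0.14. Of the 31 tested genes without it in the window, 20 were higher and 1 was lower, also with a median of 0.14. Against YAMC, 5 of the 9 were higher, with a median of 0.20, and 24 of the 31, with a median of 0.24. Of the genes printed above, Rps26, with the run, was higher than in bleo/Neo by 0.39, as given above. Rpl38, with the run, differed by 0.05 ± 0.05 in that comparison and was not called. Rps25 and Rpl37, without it, were higher by 0.77 and 0.63, and Rplp0 and Rps4x, also without it, by 0.34 and 0.13.

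Members moved together from array to array only in part. Over the 50 arrays, the correlation of 2 members' deviations from their group means was positive for 734 of 1035 pairs (70.9%), with a median of 0.23 and a range from −0.71 to 0.84. The arrays share 1 normalization, and replicates of a group share cells, so this is a description. Rps26 (0.85), Rpl37 (0.80) and Rps29 (0.78) followed the mean of the other members most closely, and Rpl4 (−0.44) and Rpl6 (−0.32) ran against it.

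Where a gene had several single-symbol probe sets, its difference depended on which one was read. For 21 members, 44 other probe sets also passed the filter. In mp53/Ras against bleo/Neo 32 of the 44 were more positive than the representative of their gene, with a median of 0.24 beside 0.15 for the representatives. In Ras cells 31 were more positive (medians 0.16 and 0.12) and in mp53 cells 25 (0.04 and 0.01). In bleo/Neo against YAMC 24 were, and the representatives had the larger median there (0.01 for the others and 0.02 for the representatives). Among 29 tested members the mean level was at least 13, and the highest value of the table is 14.26. Of 28 other probe sets of genes called in mp53/Ras against bleo/Neo, 26 had the same sign as the representative. The 2 of opposite sign belonged to Rpl41 and Rps18. In Ras against bleo/Neo 16 of 18 had the same sign, and those of opposite sign belonged to Rpl41 and Rpl22. Rps24 was not called in mp53/Ras against bleo/Neo, at 0.03 ± 0.05.

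Other genes of translation were read beside the ribosomal proteins. Fau, which encodes the 40S protein S30 fused to a ubiquitin-like domain, was higher than in bleo/Neo by 0.11 ± 0.04 in mp53/Ras cells and lower in mp53 cells by −0.12 ± 0.04. Of 15 other mRNAs known to start with a 5′TOP tract, 11 were higher and none lower in mp53/Ras cells, 10 and none in Ras cells, and 4 and none in mp53 cells, with medians of 0.19, 0.23 and 0.07. The shares higher were 73.3%, 66.7% and 26.7%, beside 26.7%, 19.7% and 16.5% of all tested genes, of which 27.9%, 21.4% and 18.9% were lower. Nap1l1, a histone chaperone gene, was higher by 0.72 ± 0.07, 0.60 ± 0.07 and 0.38 ± 0.07 in mp53/Ras, Ras and mp53 cells (limma adjusted p = 1.24e-12, 5.73e-10 and 2.17e-05). Eif4b, an initiation factor that assists the eIF4A helicase, was higher by 0.53 ± 0.12, 0.40 ± 0.12 and 0.40 ± 0.12.

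Of 35 ribosome biogenesis genes, 22 were higher and 1 lower in mp53/Ras than in bleo/Neo cells, 8 higher and none lower in Ras cells, and 1 higher and 5 lower in mp53 cells, with medians of 0.28, 0.17 and −0.06. The shares higher were 62.9%, 22.9% and 2.86%, beside 26.7%, 19.7% and 16.5% of all tested genes. In mp53/Ras and mp53 cells 2.86% and 14.3% were lower, and 27.9%, 21.4% and 18.9% of all tested genes were lower in the 3 comparisons. In Ras cells the share higher was near the background, and in mp53 cells both shares were below it. Wdr12, of the PeBoW complex that processes 60S precursors, and Ltv1, a 40S assembly factor, were higher in mp53/Ras cells by 0.72 ± 0.13 and 0.58 ± 0.10 (limma adjusted p = 5.93e-06 and 2.24e-06). Nhp2, of the box H/ACA particles that modify ribosomal RNA, was lower in mp53 than in bleo/Neo cells by −0.36 ± 0.11 and higher in bleo/Neo than in YAMC cells by 0.70 ± 0.11 (adjusted p = 0.00932 and 1.47e-06).

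Mitochondrial ribosomal proteins belong to another ribosome. Of 76 tested, 35 were higher and 6 lower in mp53/Ras than in bleo/Neo cells, 23 and 8 in Ras cells, and 5 and 19 in mp53 cells, with medians of 0.19, 0.11 and −0.05. The shares higher were 46.1%, 30.3% and 6.58%, beside 26.7%, 19.7% and 16.5% of all tested genes. The shares lower were 7.89%, 10.5% and 25%, beside 27.9%, 21.4% and 18.9%. In bleo/Neo against YAMC 35 were higher and 4 lower (46.1% and 5.26%, beside 20% and 17.4% of all tested genes), with a median of 0.17. Against YAMC, 60 were higher and 1 lower in mp53/Ras cells (78.9% and 1.32%, beside 29.1% and 28.7%), with a median of 0.38. In Ras cells 41 were higher and 0 lower (53.9% and 0%, beside 21.5% and 21.2%). In mp53 cells 13 were higher and 1 lower (17.1% and 1.32%, beside 11.1% and 11.8%). The cytosolic median in mp53/Ras cells against YAMC was 0.21. Mrpl42 was higher in mp53/Ras than in bleo/Neo cells by 1.08 ± 0.14, and Mrpl10 was lower in mp53 than in bleo/Neo cells by −0.62 ± 0.08 (limma adjusted p = 5.35e-09 and 7.59e-09). These lists were read against the same background shares of all tested genes as the ribosomal proteins.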

How the data were processed

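Polysomal RNA of 50 samples was hybridised to mouse genome arrays, 10 per population. The authors deposited 1 linear intensity per probe set and array, and RMA is named per the submitters' processing notes, without a version. Array medians lay between 86.4 and 86.7. Intensities were turned to log2, with no offset. Gene symbols came from the platform annotation. A gene was tested where its value exceeded the table median (6.44 on the log2 scale of the deposited values) on at least 10 arrays.

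All arrays entered 1 limma fit (version 3.58.1, R 4.3.3) with a coefficient per group and an intensity trend, and p-values were adjusted by Benjamini-Hochberg over 12883 genes in each of 8 comparisons. A gene was called at an adjusted p under 0.05. Paralogs were compared as differences within arrays, with two-sided permutation tests (100000 resamples, scipy 1.17.1). No scan dates or detection calls were used here. Precision is limited by how many arrays a group has.

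The members, gene lists and alternatives were chosen with earlier results of these data known. Per-group values were to be given for paralogs, the stalk genes, Rpsa, the 5 largest called rises and falls in the 3 comparisons with bleo/Neo and in bleo/Neo against YAMC, and the 5 largest called non-additive terms; other genes were named from lists, up to 3 by size. Alternatives changed the filter, the trend, the probe set rule, the centring, the arrays and the replicate block. On simulated data for mp53/Ras against bleo/Neo (12883 genes), the fit recovered 12 of 50 genes changed by 0.25, 37 of 50 changed by 0.5 and all 50 changed by 1, with 7 false calls. The simulated arrays were independent and few genes were changed, whereas 54.6% of tested genes were called in the deposited data. These figures therefore do not describe the calls on the members.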

Additional observations from a re-analysis of the deposited data

Results flagged for a closer look

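For 25 named and paralog genes, 125 groups of 10 arrays were examined for a single array far from the rest, and 17 were found. Chance marks about 1 group in 20. The lowest array of its group was mp53 5 for Rpl14 (8.65), Rpl22 (12.98), Rpl22l1 (10.28) and Rps3 (13.24). Array mp53 8 was lowest for Rpl19 (13.31), Rpl7a (13.40), Rps14 (12.03), Rps2 (13.15) and Rps9 (12.28), and highest for Rpl4 (13.88) and Rps6 (8.85). Array mp53 9 was lowest for Rpl7l1 (10.12). Array Ras 10 was lowest for Rpl7a (13.63), Rplp0 (12.37) and Rps9 (12.80), and highest for Rpl22 (13.57) and Rpl7l1 (10.61). Arrays mp53 8 and Ras 10 are among the 4 that lay nearer another group's mean over the whole table.

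By the non-additive term of the limma fit, mp53/Ras differed from bleo/Neo by more or less than mp53 and Ras added for 9 members. Of all tested genes 23.9% were so called. Each population exists once, so the term cannot be told apart from differences between derivations. The term was 0.49 for Rps6, 0.23 for Rplp2, 0.22 for Rplp0, 0.21 for Rps4x, 0.16 for Rpl7a and 0.12 for Rps3. It was −0.16 for Rps2, −0.40 for Rpl7l1 and −6.02 for Rps4l. The causes were not tested.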

How the results depend on the processing

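The counts of called members stayed within 1.5 times in each of the 8 comparisons under every alternative but 1. Members called in mp53 against YAMC were 9, and 14 with arrays mp53 8, mp53 10, Ras 10 and YAMC 2 left out, an alternative with fewer arrays. Members called in mp53/Ras against bleo/Neo were 25 to 32 over the alternatives, the 25 among 39 genes tested without probe sets of the cross-hybridising _x_at type. The Rps4l and Rps4x difference kept its direction and its call in the alternatives run. With the mean of a gene's probe sets, 2 named values turned: Rps6 in mp53 against bleo/Neo was 0.11 and Rpsa was −0.034, where the added probe sets averaged 4.46 and 4.83. Under the same setting Rpl7l1 minus Rpl7 and Rpl22l1 minus Rpl22 in bleo/Neo against YAMC were −0.10 and 0.28 and no longer called, and Rpl22 in mp53 cells was 0.02.

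With the replicate number as a block, members called were 30, 22 and 11 in mp53/Ras, Ras and mp53 against bleo/Neo, beside 29, 20 and 11, and Rps27l minus Rps27 in mp53 cells was no longer called at −0.18. The labels name nothing that same-numbered arrays share, and not every same-numbered pair correlated above 0.1 (the lowest was −0.52), so the block was kept as an alternative. Same-numbered arrays nonetheless tended to be alike. Their median correlations ran from −0.08 to 0.46 by number, against −0.02 for different numbers, and 31 of 50 arrays correlated best with their own number. What they share was not tested, and the main fit does not take it into account. Leaving out the arrays numbered 5 was chosen after seeing the data. Without detection calls, whether low values of Rps4l, Rpl39l and Rpl3l stand above background was not tested.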

Other observations

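Rps24 has another probe set, with a mean of 5.68, whose levels did not follow its representative. It was singled out after its values were seen, as the widest of 44 other probe sets that passed the filter. Its medians were 4.56 in mp53/Ras, 4.81 in Ras, 7.04 in mp53, 4.91 in bleo/Neo and 7.13 in YAMC arrays. Its group means spanned 2.49, against 0.84 for the next widest and a median of 0.37. The 5 other single-symbol probe sets of Rps24 had means from 6.50 to 13.22, and their mp53 differences from bleo/Neo lay between −0.09 and −0.04, beside 1.86 for this probe set.

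Rpl3l, the muscle paralog of Rpl3, was too dim to be tested. Its medians were 5.27 in mp53/Ras, 5.14 in Ras, 4.81 in mp53, 4.86 in bleo/Neo and 4.99 in YAMC arrays. Rpl27a had the widest scatter of the tested members, with an SD within groups of 0.76, and no call in it could be read from a span of 0.36 between its group means.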
